A study of Mus musculus with 12 samples.

Results

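Fatty acid activation and beta-oxidation were examined through 33 genes in cells sorted from the mouse cerebellum on postnatal day 1 (P1), day 7 (P7), day 14 (P14) and day 28 (P28). The genes were chosen by function, with earlier results of these data known, and matched by symbol. They cover acyl-CoA synthetases, the carnitine shuttle, the mitochondrial and peroxisomal oxidation enzymes and their electron carriers. Also included are 2 acyl-CoA thioesterases, a fatty acid-binding protein and the regulator Ppara. All 33 were among the 24421 entries of the deposited table, and all 33 passed the filter on low values. The mice carried the Aldh1l1-GFP reporter on a C57/BL6J background, and animals of both sexes were used. GFP was driven by the Aldh1l1 promoter, which marks astrocytes, and GFP+ cells were purified by FACS from dissociated cerebellum. All 4 groups shared this genotype and, as labelled, differed in age alone, with 3 libraries per time point and 12 in all. The labels do not say whether the libraries of a time point came from separate animals, so the p-values measure the spread between these libraries, part of which may be technical.

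Fatty acids are first joined to coenzyme A by acyl-CoA synthetases. Long-chain acyl groups then enter the mitochondrion through the carnitine shuttle, where rounds of dehydrogenation, hydration, dehydrogenation and thiolytic cleavage release acetyl-CoA, and electrons pass through the electron transfer flavoprotein (ETF) to the respiratory chain. Very long and branched chains are shortened in peroxisomes, and unsaturated chains need additional isomerases and reductases. In the brain this pathway is best known from astrocytes.

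The sequences just upstream of 4 of these genes, and the stretch between Hadha and Hadhb, are shown for the following reasons. The transcripts of Acsbg1 and Acsl3 both rose from P7 to P14. Of this pair, only Acsbg1 was called from P1 to P7 and from P14 to P28. Acot1 and Acot2 are neighbours that fell together between P1 and P7, and Hadha and Hadhb face each other with little space between them. Each sequence is written 5′ to 3′ from the RefSeq promoter windows of GRCm38.p6 (the assembly also called mm10). It ends at or just before the annotated start, with Acot1 shortened to the bases before its gene model. In the first 4, capitals mark CCAAT on either strand, and in the last they mark GGGCGG. Acsbg1 occupies chr9:54604877-54661870 on the minus strand, and its sequence is chr9:54661886-54662135. Acsl3 occupies chr1:78657825-78707743 on the plus strand, with the sequence at chr1:78657575-78657824. Acot1 (chr12:84009490-84018371) and Acot2 (chr12:83987861-83993873) lie on the plus strand, with sequences at chr12:84009252-84009489 and chr12:83987611-83987860. Hadha (chr5:30118304-30155162, minus strand) and Hadhb (chr5:30155248-30184593, plus strand) start head to head, and the 85 bases at chr5:30155163-30155247 are all that separates them, read here towards Hadhb.
Acsbg1: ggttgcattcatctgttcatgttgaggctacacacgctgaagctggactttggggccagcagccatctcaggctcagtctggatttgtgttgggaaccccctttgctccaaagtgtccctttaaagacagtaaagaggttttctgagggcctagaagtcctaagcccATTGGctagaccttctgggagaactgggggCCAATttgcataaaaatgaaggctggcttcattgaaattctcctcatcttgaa
Acsl3: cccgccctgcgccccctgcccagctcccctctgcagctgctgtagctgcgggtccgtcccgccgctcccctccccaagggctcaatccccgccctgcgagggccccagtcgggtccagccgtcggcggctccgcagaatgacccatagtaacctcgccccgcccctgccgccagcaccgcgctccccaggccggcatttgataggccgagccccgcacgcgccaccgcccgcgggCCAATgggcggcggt
Acot1: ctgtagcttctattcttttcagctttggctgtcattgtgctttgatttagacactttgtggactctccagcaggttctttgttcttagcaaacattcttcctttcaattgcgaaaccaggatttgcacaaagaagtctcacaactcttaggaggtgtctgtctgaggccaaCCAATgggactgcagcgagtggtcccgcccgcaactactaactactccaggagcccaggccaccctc
Acot2: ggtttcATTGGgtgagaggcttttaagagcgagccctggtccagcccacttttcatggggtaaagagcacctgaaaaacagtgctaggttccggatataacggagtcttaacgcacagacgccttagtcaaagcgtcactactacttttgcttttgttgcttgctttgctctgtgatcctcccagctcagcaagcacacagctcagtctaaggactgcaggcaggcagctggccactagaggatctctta
Between Hadha and Hadhb: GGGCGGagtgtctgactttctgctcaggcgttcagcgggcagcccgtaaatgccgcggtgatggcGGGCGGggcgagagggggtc

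CCAAT lies 83 (reverse strand) and 53 bases before the RefSeq start of Acsbg1, 15 bases before that of Acsl3, 79 bases before that of Acot1 and, on the reverse strand, 244 bases before that of Acot2. Between Hadha and Hadhb, GGGCGG begins at bases 1 and 66. Promoter windows (250 bases before to 50 bases after the start) were found for 30 of the 33 genes, as 34 windows, and were searched on both strands. CCAAT was in 18 of these windows (52.9%) and in 37.4% of all 32851 windows. GGGCGG was in 25 of the 34 (73.5%) and in 35.7% of all windows. AGGTCA, a nuclear receptor half-site, was in 5 of the 34 (14.7%) and in 16.3% of all windows. Its direct repeat with 1 base between the copies, the form to which PPAR and RXR bind and whose every match also holds AGGTCA, was in 0 of the 34 and in 0.0396% of all windows. With any base allowed at the fourth position of each copy (AGGNCA), the repeat was in 0 of the 34 and 0.381% of all. CACGTG was in 0 of the 34 and 7.15% of all. These are matches of letters within the windows and not known binding sites.

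The libraries held 6399499 to 14733985 reads counted on genes. The values, here called normalized counts, are these reads divided by one size factor per library. Expression was compared with limma on log2(normalized count + 1), in one model of all 12 libraries and over 15464 genes, and a gene was called at a Benjamini-Hochberg adjusted p under 0.05 over all of them. Fold changes on this scale understate those of low genes. The 4 comparisons (P7 versus P1, P14 versus P7, P28 versus P14 and P28 versus P1) share libraries and are not independent of each other. Of the 10 astrocyte markers (among them Aldh1l1, Slc1a3, Slc1a2, Aqp4 and Gja1), all were tested. Their summed level was 59407 to 74423 normalized counts at P1 and 29291 to 53547 at P7, and 154959 to 191092 and 358112 to 419126 in the P14 and P28 libraries. The 10 markers of myelinating oligodendrocytes summed to 1600.0 to 2474 at P1 and 21890.1 to 33699.9 at P7. They then summed to 316620 to 373159 at P14 and 102863 to 142449.7 in the P28 libraries, so at P14 they exceeded the astrocyte markers in every library. The 6 markers of proliferating cells summed to 7308 to 13430.3, 17595 to 23640.2, 586 to 1108 and 18.9 to 78.9 in the same order. In such bulk samples, fewer cells of a type and less RNA per cell cannot be told apart. The 6 choroid plexus markers differed between libraries of one time point, from 1312 to 109902 at P14 and from 17922 to 182539.6 at P28. Granule neuron (8), Purkinje cell (6), oligodendrocyte precursor (6), microglia (6) and endothelial (6) markers each summed to at most 21969, 7562, 7647, 3617 and 8695 in any library. Among these and the proliferation markers, Gabra6 at P1, Atoh1 at P14 and P28 and Cdk1 at P28 were at 0 in all 3 libraries. Of the 5 red blood cell markers, 4 (the hemoglobin genes) were at 0 in every library. Alas2, the remaining marker of that list, was detected in all 12 libraries. Its lowest value was 2.92 normalized counts, in a P28 library, and its highest 117.8, in a P7 library. The reason for the hemoglobin zeros was not tested, so they do not show that red blood cells were absent.

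P7 was the most frequent time point of the lowest mean and P28 of the highest, though not always in the same genes. The mean was lowest at P7 for 19 of the 33 genes, and highest at P28 for 18, at P14 for 8, at P1 for 6 and at P7 for 1. From P1 to P7, 1 gene (Acsl1) rose and 5 (Acot1, Acot2, Cpt1a, Acsbg1 and Eci2) fell. That is 3.03% higher and 15.2% lower, where 3.47% of all genes tested were higher and 4.24% were lower. From P7 to P14, 8 (Acsbg1, Acsl6, Acsl3, Eci1, Cpt2, Hadhb, Acsl1 and Cpt1c) rose and 1 (Acot1) fell, or 24.2% and 3.03% beside 10.8% and 10.0% of all genes. From P14 to P28, 6 (Acads, Acsbg1, Decr1, Hadhb, Acot2 and Acsl6) rose and 1 (Cpt1c) fell, or 18.2% and 3.03% beside 5.68% and 8.76%. At an unadjusted p under 0.05 with a log2 fold change over 0.75, 0 of the 33 genes fell in that step, beside 16.3% of all genes. Cpt1c (-0.73) and Acsl1 (-0.69) met the p-value part of that threshold but narrowly missed the fold change. The share of all genes at that threshold was taken for falls in this step alone. Between P1 and P28, 9 (Acsbg1, Acsl6, Acsl3, Hadhb, Eci1, Decr1, Acsl1, Cpt2 and Etfa) were higher at P28 and 3 (Acot1, Fabp5 and Eci2) were lower, or 27.3% and 9.09% beside 14.6% and 20.0%. In all, 16 genes were called at least once and 17 never. The matching share of all genes was not worked out, so these 2 counts cannot be read against it. The summed astrocyte markers were also lowest at P7 and highest at P28, and their part in these counts was not tested.

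The fitted difference was below 0 for 25 of the 33 genes from P1 to P7, with a median of -0.41 on the log2 scale beside 0.037 for all genes tested. It was above 0 for 26 of 33 from P7 to P14 (median 0.44, all genes -0.086) and for 22 of 33 from P14 to P28 (median 0.40, all genes -0.12). Between P1 and P28 it was above 0 for 21 of 33, with a median of 0.26 (all genes -0.24), which became -0.17 when libraries were scaled by their totals alone. That scaling moved the median of all genes to 0.097, -0.34, -0.35 and -0.67 in the order P7 versus P1, P14 versus P7, P28 versus P14 and P28 versus P1, and the medians of the 33 genes to -0.35, 0.18, 0.17 and -0.17. The 33 genes thus differed from the median of all genes by -0.45, 0.53, 0.53 and 0.50 with the deposited scaling and by -0.45, 0.53, 0.52 and 0.50 with library totals. With library totals, 1 gene rose and 5 fell from P1 to P7, 5 rose and 2 fell from P7 to P14, 4 rose and 2 fell from P14 to P28, and 7 were higher and 6 were lower in P28 versus P1. Leaving out 1 library moved the number that fell from P1 to P7 to 8 (without P14 replicate 1), the number that rose from P7 to P14 to 5 (without P7 replicate 1) and the number that rose from P14 to P28 to 3 (without P14 replicate 3).

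**Figure D1:**
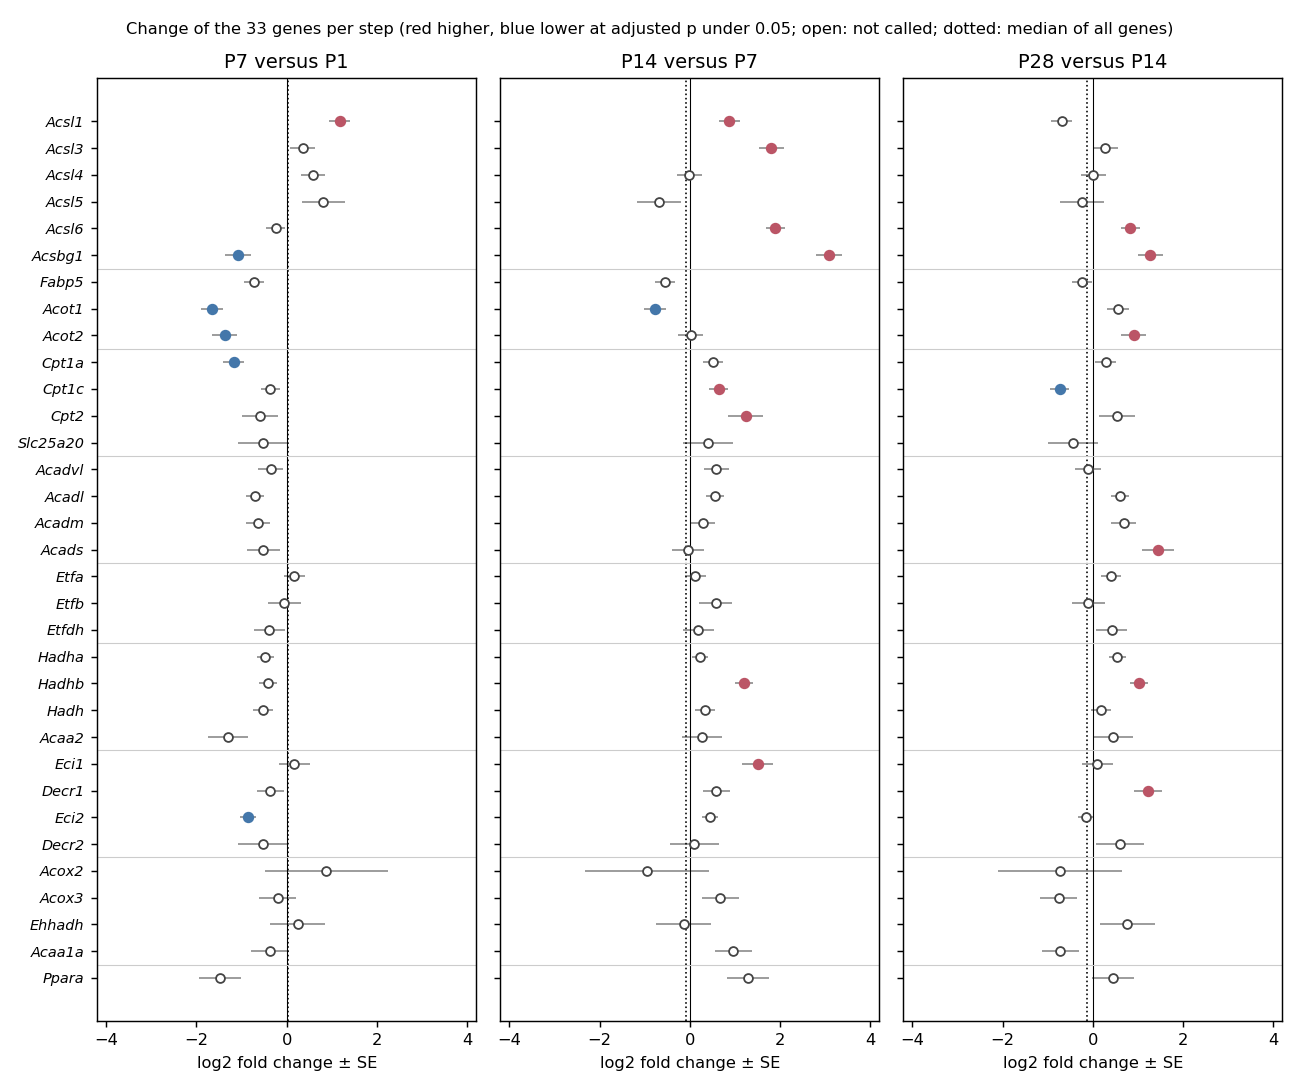
Fitted log2 fold change of each of the 33 genes (rows, grouped by role in the pathway) in P7 versus P1, P14 versus P7 and P28 versus P14, with bars of 1 standard error (3 libraries per time point). Filled red points were called higher (1, 8 and 6 genes), filled blue points lower (5, 1 and 1), open points were not called, and the dotted line is the median of all 15464 genes.

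Among the 33 genes, 3 acyl-CoA synthetases (Acsbg1, Acsl6 and Acsl3) had the largest rises both from P7 to P14 and between P1 and P28. Acsbg1, the bubblegum acyl-CoA synthetase, which activates long and very long chains, had 1495, 1250.3 and 769 normalized counts in the 3 libraries at P1, 655, 332 and 695 at P7, 4889.6, 5152 and 3667 at P14 and 10637, 10369.8 and 11707 at P28. Every library at P14 lay above every library at P1 and P7, and every library at P28 lay higher still. It fell from P1 to P7 (log2 fold change -1.08, SE 0.28, adjusted p = 0.0281), rose from P7 to P14 (3.08, SE 0.28, adjusted p = 3.87e-06), rose again to P28 (1.27, SE 0.28, adjusted p = 0.00905) and was 9.64-fold higher at P28 than at P1 (3.27, SE 0.28, adjusted p = 9.21e-07). The fall to P7 was not called without P1 replicate 1 (-0.88, adjusted p = 0.143), P1 replicate 2 (-1.01, adjusted p = 0.108) or P7 replicate 2 (-0.74, adjusted p = 0.123). Acsl3, a long-chain synthetase of the endoplasmic reticulum and lipid droplets, had 728, 2071 and 1199 normalized counts at P1, 1925, 1255 and 1568 at P7, 5609.8, 5541 and 5196 at P14 and 6753, 6256 and 6724 at P28. The P1 and P7 libraries overlapped, and those of P14 and P28 were all above them. Acsl3 rose from P7 to P14 (1.80, SE 0.28, adjusted p = 0.000327) and was 5.39-fold higher at P28 than at P1 (2.43, SE 0.28, adjusted p = 1.41e-05).

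Acsl6, the synthetase known for long polyunsaturated chains in brain, had 470.0, 664 and 563 normalized counts at P1, 589, 348 and 516 at P7, 1955, 1537 and 1823 at P14 and 3453, 2809 and 3151 at P28. The early libraries overlapped, P14 lay above both and P28 above P14. Acsl6 rose from P7 to P14 (1.90, SE 0.21, adjusted p = 2.37e-05) and from P14 to P28 (0.83, SE 0.21, adjusted p = 0.0201), and was 5.57-fold higher at P28 than at P1 (2.48, SE 0.21, adjusted p = 1.01e-06). The rise to P28 was not called without P14 replicate 2 (0.73, adjusted p = 0.0740), without P14 replicate 3 (0.85, adjusted p = 0.0538) or with library totals (0.59, adjusted p = 0.0746). Acsl1, a long-chain synthetase of mitochondria and the endoplasmic reticulum, differed from these in its course. Its normalized counts were 233, 171 and 169.6 at P1, 355, 491 and 455 at P7, 872, 792 and 706 at P14 and 544, 461 and 464 at P28, so that it was highest at P14 with no overlap with any other time point. It rose from P1 to P7 (1.18, SE 0.23, adjusted p = 0.00561) and to P14 (0.87, SE 0.23, adjusted p = 0.0148), and was 2.57-fold higher at P28 than at P1 (1.36, SE 0.23, adjusted p = 0.000453). The rise to P14 was not called without P7 replicate 1 (0.73, adjusted p = 0.0862), without P14 replicate 1 (0.80, adjusted p = 0.0592) or with library totals (0.62, adjusted p = 0.0765). The summed myelin markers, like Acsl1, were highest at P14, and their part in its course was not tested. Acsl4, which prefers arachidonate, and Acsl5 were called in none of the 4 comparisons by limma. Acsl4 had means of 282 ± 90.8 (SD, n = 3), 413 ± 72.2, 406 ± 32.6 and 414 ± 74.9 normalized counts at P1, P7, P14 and P28, and Acsl5 had 100.5 ± 1.48, 181 ± 47.6, 110.5 ± 16.6 and 106 ± 56.1.

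Division by kilobases of exon allows a rough comparison of genes with each other. The length is the union of annotated exons, which may exceed that of the transcripts counted. On this scale, Acsbg1 and Acsl3 made up most of the 6 synthetase transcripts at every time point. Acsbg1 was 43.6% ± 13.2 (SD, n = 3) of their summed level at P1, 21.6% ± 5.43 at P7, 45.2% ± 3.91 at P14 and 62.2% ± 1.39 in the P28 libraries. Acsl3 was 35.1% ± 12.5, 45.1% ± 4.14, 39.7% ± 2.29 and 27.4% ± 0.770 in the same order. At P1 the share of Acsbg1 ranged from 35.2% to 58.8% between libraries, a spread that covered its whole range at P14 (40.9% to 48.6%), while its range at P28 was 60.7% to 63.5%. Acsl1 had its largest share at P7, with 12.1% ± 3.56, against 1.93% ± 0.204 at P28. Over all 33 genes, Fabp5 (1493 normalized counts per kilobase), Eci2 (1114) and Acot1 (951) were the most abundant at P1, and Acsbg1 (3786), Acsl3 (1665) and Hadhb (1316) at P28.

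**Figure D2:**
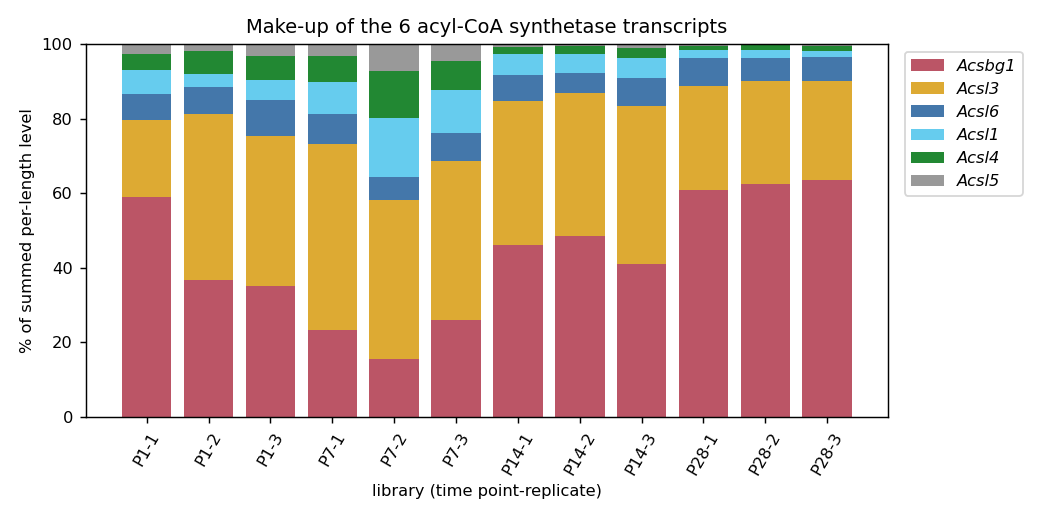
Share of each of 6 acyl-CoA synthetases in their summed level per kilobase of exon (vertical axis, %) in each of the 12 libraries. Acsbg1 took 15.5% to 26.0% at P7 and 60.7% to 63.5% at P28, and Acsl3 took 20.9% to 49.9% over all libraries.

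The products of 3 genes bind acyl chains or release them from coenzyme A. Of these 3 genes, 2 were lower at P28 than at P1 (66.7%, beside 20.0% of all genes). From P1 to P7, 2 of the 3 fell (66.7%, beside 4.24%). Acot1, the cytosolic acyl-CoA thioesterase, had 2248, 2212 and 2020.3 normalized counts at P1, 854, 449 and 843 at P7, 417, 452 and 346 at P14 and 511, 698 and 594 at P28. The P1 libraries stood far above all others. Acot1 fell from P1 to P7 (-1.65, SE 0.24, adjusted p = 0.000898) and was 3.61-fold lower at P28 than at P1 (-1.85, SE 0.24, adjusted p = 5.32e-05). It also fell from P7 to P14 (-0.77, SE 0.24, adjusted p = 0.0378), where 1 library of P7 lay inside the range of P14. That step was not called without P1 replicate 1 or 3, P7 replicate 1 or 3, or any of P14 replicates 1, 2 and 3 (adjusted p from 0.0518 to 0.171), nor with a replicate block in the fit (adjusted p = 0.0545). Acot2, its mitochondrial relative, had 978, 994 and 731 at P1, 475, 230.3 and 372 at P7, 339, 410.5 and 305 at P14 and 684, 527 and 783 at P28. It fell from P1 to P7 (-1.37, SE 0.28, adjusted p = 0.00652) and rose from P14 to P28 (0.91, SE 0.28, adjusted p = 0.0411). The rise was not called without P1 replicate 1 or 2, P7 replicate 3, P14 replicate 1, 2 or 3, or P28 replicate 1 or 3 (adjusted p from 0.0514 to 0.128), nor without the filter on low values (0.0531), with only these 2 time points fitted (0.0943) or with library totals (0.67, adjusted p = 0.102). The 2 genes lie on chromosome 12, with starts on the same strand and a distance of 15617 bases, and 434 of the stretches of 75 bases in their transcripts are identical, 21.2% of those of Acot2 and 15.0% of those of Acot1 being shared with some other gene. How reads in such stretches were counted is not stated, so the division of reads between the 2 genes is uncertain.

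Fabp5, a fatty acid-binding protein of the cytosol, ranged from 1153 to 1944 normalized counts at P1, from 758 to 1022 at P7, from 579 to 621 at P14 and from 415 to 617 in the P28 libraries. None of the consecutive steps was called by limma, but Fabp5 was 2.84-fold lower at P28 than at P1 (-1.51, SE 0.23, adjusted p = 0.000157), and no library of P14 or P28 reached the lowest library of P1 or P7.

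**Figure D3:**
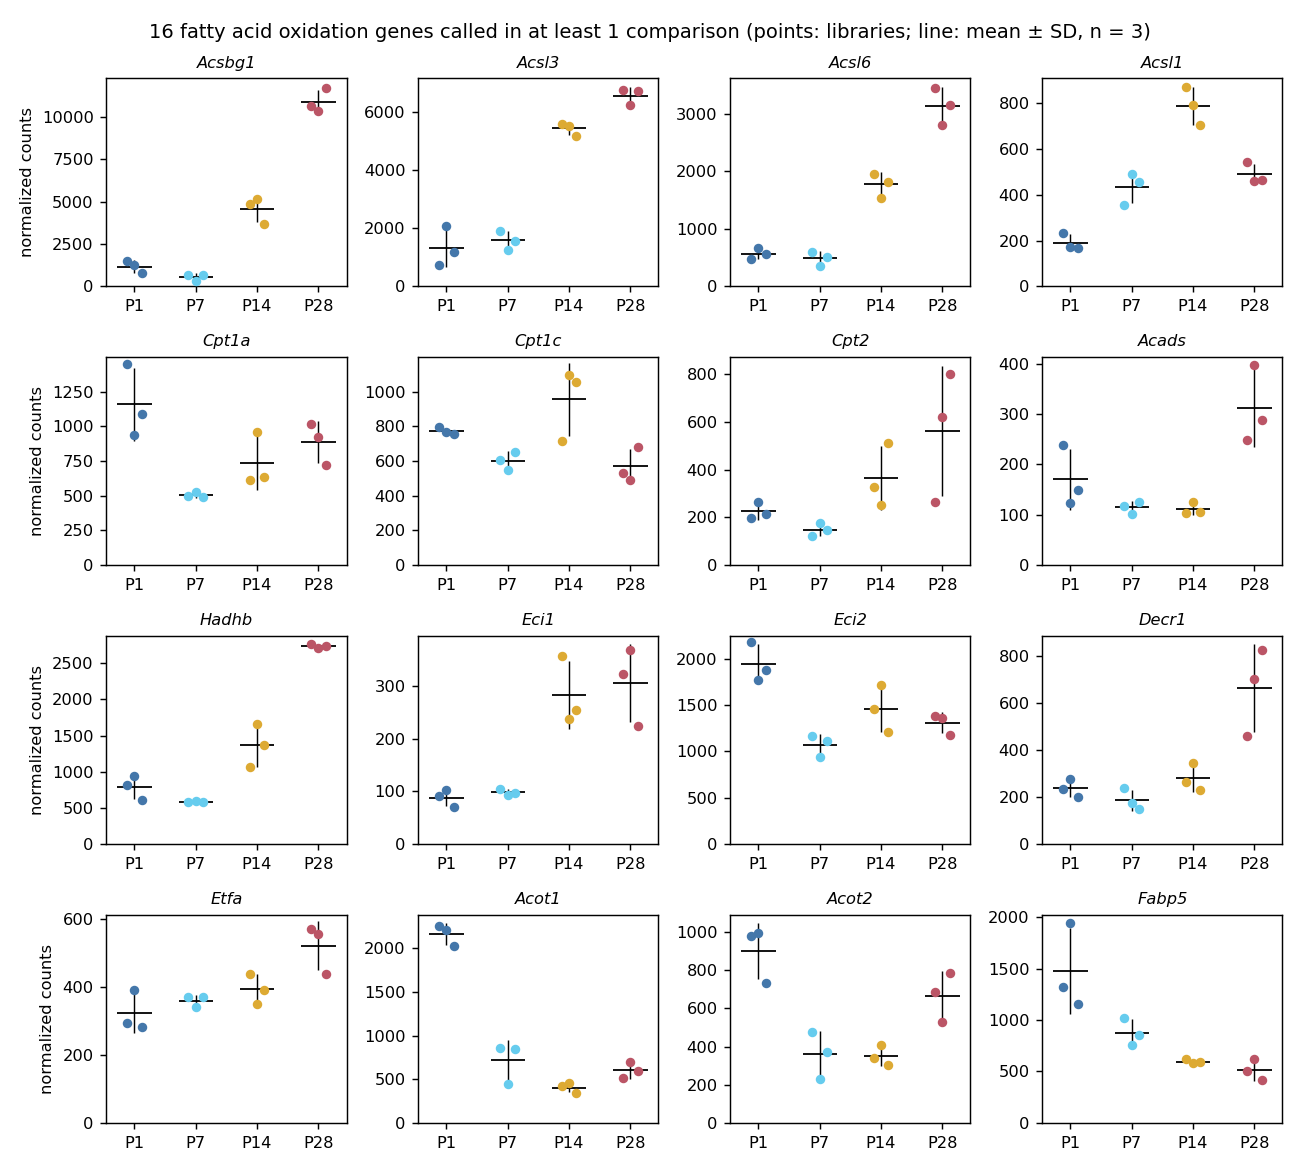
Normalized counts (vertical axis, linear, from 0) of the 16 genes called in at least 1 comparison, by time point, with each library as a point and the mean ± SD (n = 3) as a line. Acsbg1, Acsl3, Acsl6 and Hadhb reach their highest level at P28, Acsl1 and Cpt1c at P14, and Acot1 and Fabp5 at P1.

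Of the 4 carnitine shuttle genes, 1 fell from P1 to P7, 2 rose from P7 to P14, 1 fell from P14 to P28 and 1 was higher at P28 than at P1. Their median fitted difference was -0.56, 0.58, -0.076 and -0.41 in these 4 comparisons. Cpt1a is the carnitine palmitoyltransferase of the outer mitochondrial membrane that commits long chains to oxidation, and Cpt1c is the brain form, known from the endoplasmic reticulum of neurons. Cpt1a had 1449, 940.2 and 1087 normalized counts at P1, 498, 525 and 491 at P7, 614, 958 and 632 at P14 and 1014, 921 and 721 at P28. It fell from P1 to P7 (-1.18, SE 0.23, adjusted p = 0.00537), with the 3 libraries of P7 close together and below all of P1. It was called in no other comparison by limma. Cpt1c had 795, 764 and 754 at P1, 605, 546 and 654 at P7, 715, 1094 and 1054 at P14 and 533, 492 and 683 at P28. It rose from P7 to P14 (0.64, SE 0.21, adjusted p = 0.0431) and fell from P14 to P28 (-0.73, SE 0.21, adjusted p = 0.0323), where the lowest library of P14 lay just above the highest of P28. The rise was not called without any one of the 3 libraries of P1 or of P7, P14 replicate 2 or P14 replicate 3 (adjusted p from 0.0519 to 0.156), nor with library totals (0.39, adjusted p = 0.196). The fall was not called without P7 replicate 1, P14 replicate 2 or 3, or P28 replicate 1 or 2 (adjusted p from 0.0504 to 0.110), nor with only these 2 time points fitted (adjusted p = 0.146). The summed myelin markers likewise were higher at P14 than at P7 and P28, and their part in the values of Cpt1c was not tested. Of the exon bases of Cpt1c, 13.1% are shared with a gene on the opposite strand, and whether counting used strand is not stated.

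Per kilobase of exon, the ratio of Cpt1a to Cpt1c was 1.18, 0.796 and 0.932 in the libraries of P1, 0.532, 0.622 and 0.485 at P7, 0.556, 0.567 and 0.388 at P14 and 1.23, 1.21 and 0.683 at P28. It was thus lower in all 6 libraries of the middle time points than in all 6 of the first and the last. That pattern was seen in the values and was not tested. The test of P14 and P28 against P1 and P7 gave a difference in the log2 ratio of -0.029 (exact permutation test, two-sided, n = 6 and 6, p = 0.929, adjusted p = 0.929 over 3 ratios), with overlapping libraries. Cpt2, the inner membrane enzyme that returns acyl groups to coenzyme A, had 196, 266 and 214 normalized counts at P1, 121, 178 and 149 at P7, 328, 253 and 513 at P14 and 265, 620.4 and 802 at P28. The P28 libraries spread widely, and the lowest of them lay inside the range of P1. Cpt2 rose from P7 to P14 (1.24, SE 0.39, adjusted p = 0.0378) and was higher at P28 than at P1 (1.18, SE 0.39, adjusted p = 0.0317). The first call was lost without P1 replicate 3, any one library of P7, P14 replicate 1 or P14 replicate 3 (adjusted p from 0.0504 to 0.155), and the second without P1 replicate 1 or 3 or P28 replicate 2 or 3 (adjusted p from 0.0810 to 0.111) and with only P1 and P28 fitted (adjusted p = 0.0819). With library totals the values were 0.98 (adjusted p = 0.0813) and 0.75 (adjusted p = 0.132). Slc25a20, the carrier that exchanges acylcarnitine for carnitine, had means of 88.9 ± 10.4, 63.7 ± 21.9, 93.6 ± 63.4 and 62.2 ± 20.6 normalized counts at P1, P7, P14 and P28 (SD, n = 3) and was not called.

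The acyl-CoA dehydrogenases carry out the first step of each round, for very long (Acadvl), long (Acadl), medium (Acadm) and short (Acads) chains. Only Acads was called among these 4, in 1 comparison (25.0% higher from P14 to P28, beside 5.68% of all genes). Its mean was 171 ± 60.6, 115 ± 12.7, 112 ± 12.3 and 311 ± 77.2 normalized counts (SD, n = 3) in the order P1, P7, P14 and P28, and it rose from P14 to P28 (1.45, SE 0.36, adjusted p = 0.0168), with all libraries of P28 (248 to 397) above those of P14 (104 to 126). The call was lost when only the libraries of these 2 time points were fitted (adjusted p = 0.0792). Acadl had means of 679 ± 66.4, 419 ± 49.6, 621 ± 109 and 932 ± 91.0, and Acadm had 534 ± 135, 337 ± 34.2, 418 ± 93.0 and 679 ± 196, in the order P1, P7, P14 and P28. Both had their lowest mean at P7 and their highest at P28, but neither passed the test in any comparison. Acadvl had 332 ± 60.1, 259 ± 39.5, 396 ± 96.3 and 364 ± 70.6, and 45.0% of its exon bases lie in exons of Dvl2 on the opposite strand, so its values may hold reads of Dvl2.

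The dehydrogenases hand their electrons to ETF, a dimer of the products of Etfa and Etfb, and from there to ETF dehydrogenase (Etfdh). Etfa had 295, 390.1 and 282 normalized counts at P1, 369, 339 and 369 at P7, 438, 349 and 389.9 at P14 and 569.9, 556 and 437 at P28. The libraries of neighbouring time points overlapped, and all of P28 lay above all of P1 and P7. Etfa was 1.62-fold higher at P28 than at P1 (0.70, SE 0.23, adjusted p = 0.0311). It was not called without P1 replicate 1 or 3 or P28 replicate 1 or 2 (adjusted p from 0.0581 to 0.108), with only these 2 time points fitted (adjusted p = 0.109) or with library totals (0.26, adjusted p = 0.393). Etfb had 189, 387 and 197 at P1, 230.1, 237 and 236 at P7, 406, 330.1 and 318 at P14 and 194, 347 and 511 at P28, with the widest spread at P28. It was called nowhere by limma, and 69.1% of its exon bases are shared with the overlapping model Gm45233 on the same strand. The log2 ratio of Etfa to Etfb differed by -0.087 between P14 and P28 on one side and P1 and P7 on the other (exact permutation test, two-sided, n = 6 and 6, p = 0.794, adjusted p = 0.929). Etfdh had means of 649 ± 60.4, 496 ± 43.9, 582 ± 194 and 835 ± 399.9 (SD, n = 3) at P1, P7, P14 and P28, and its P28 libraries ranged from 378 to 1125.

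Hadha and Hadhb, which encode the mitochondrial trifunctional protein, both had their lowest mean at P7 and their highest at P28. Their rises differed in size. Hadha encodes the alpha subunit, with the hydratase and hydroxyacyl-CoA dehydrogenase activities for long chains, and Hadhb the beta subunit, with the thiolase. Hadhb had 813, 945 and 609 normalized counts at P1, 579, 589 and 581 at P7, 1071, 1659.8 and 1367 at P14 and 2766, 2712 and 2734 at P28. The 6 late libraries lay above all early ones, and those of P28 above those of P14. Hadhb rose from P7 to P14 (1.20, SE 0.20, adjusted p = 0.000567) and from P14 to P28 (1.03, SE 0.20, adjusted p = 0.00465), and was 3.52-fold higher at P28 than at P1 (1.82, SE 0.20, adjusted p = 9.4e-06). These 3 calls held with each library left out and in every other fit tried. Hadha had 1758, 2211 and 1765 at P1, 1396, 1314 and 1394 at P7, 1503, 1943 and 1399.8 at P14 and 1814, 2699 and 2594 at P28. Its early and late libraries overlapped, and it was not called in any comparison.

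The ratio of Hadha to Hadhb within a library does not depend on how libraries are scaled. Per kilobase of exon it was 1.12, 1.21 and 1.5 at P1, 1.25, 1.16 and 1.24 at P7, 0.727, 0.606 and 0.530 at P14 and 0.339, 0.515 and 0.491 at P28. Hadha thus had the higher level per kilobase in all 6 early libraries and Hadhb in all 6 late ones. Which gene is higher depends on the exon lengths used, but the change in the ratio does not. On the log2 scale, without division by length, the ratio was 1.26 ± 0.15 (SD, n = 6) at P1 and P7 and 0.0097 ± 0.37 at P14 and P28, a difference of -1.25 (exact permutation test over 924 splits, two-sided, n = 6 and 6, p = 0.00216, the smallest these numbers allow, adjusted p = 0.00649 over 3 ratios). The early libraries ranged from 1.11 to 1.53 and the late ones from -0.61 to 0.49. Each side pooled 2 ages, so the p-value counts libraries of different ages as replicates of a single condition. The mean log2 ratio was 1.29, 1.23, 0.25 and -0.23 at P1, P7, P14 and P28. With any 1 library left out, the difference was between -1.35 and -1.13. The 2 genes start on either side of the 85 bases printed above. Of the 75-base stretches of Hadhb transcripts, 16.7% also occur in other genes, mainly the model Gm13910, against 0.0113% for Hadha, and the effect of reads shared in this way on the ratio was not tested.

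**Figure D4:**
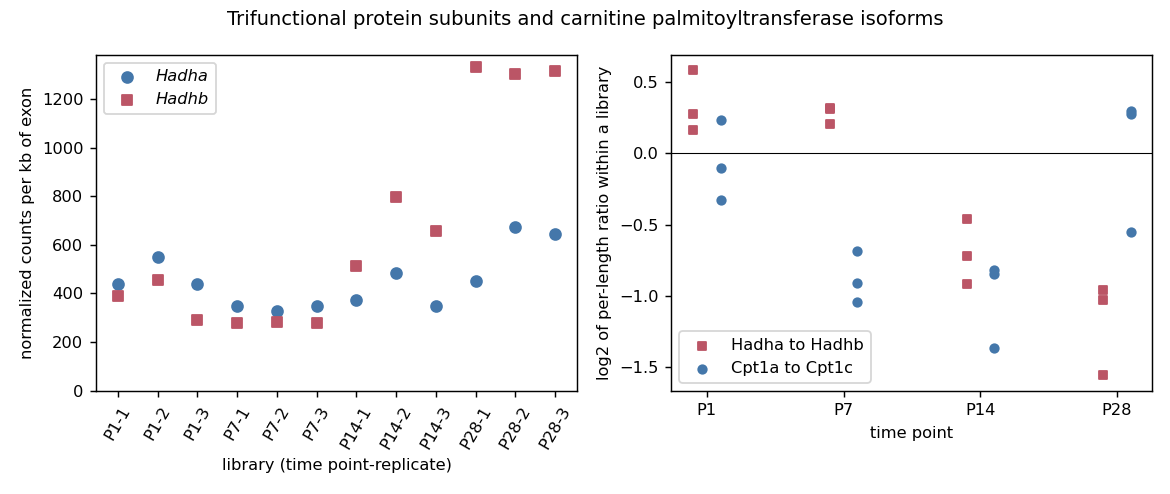
Left, normalized counts per kilobase of exon of Hadha and Hadhb in each of the 12 libraries; right, log2 of the per-kilobase ratio within each library for Hadha to Hadhb and Cpt1a to Cpt1c, by time point. Hadhb lies below Hadha in the 6 libraries of P1 and P7 and above it in the 6 of P14 and P28, while Cpt1a to Cpt1c is lowest at P7 and P14.

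The remaining enzymes of the mitochondrial rounds were not called by limma. Hadh, the hydroxyacyl-CoA dehydrogenase for medium and short chains, had means of 602 ± 74.6, 419 ± 46.8, 536 ± 98.3 and 605 ± 87.2 normalized counts at P1, P7, P14 and P28 (SD, n = 3). Acaa2, the matrix ketoacyl-CoA thiolase, had 485 ± 145, 198 ± 66.4, 275 ± 209.6 and 322 ± 82.9, and its P14 libraries had 517, 153 and 154.

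Unsaturated chains are fed into the rounds by enoyl-CoA isomerases (Eci1 in mitochondria, Eci2 mainly in peroxisomes) and dienoyl-CoA reductases (Decr1 in mitochondria, Decr2 in peroxisomes). Both mitochondrial enzymes were higher at P28 than at P1. Eci1 had 90.4, 104 and 70.4 normalized counts at P1, 105, 92.9 and 96.1 at P7, 357, 238 and 255 at P14 and 323, 369 and 224 at P28. Its late libraries, all at or above 224, did not overlap with its early ones, all at or below 105. Eci1 rose from P7 to P14 (1.5, SE 0.35, adjusted p = 0.00628) and was 3.41-fold higher at P28 than at P1 (1.77, SE 0.35, adjusted p = 0.0013). Decr1 had 236, 277 and 201 at P1, 237, 174 and 149 at P7, 265, 346 and 230.2 at P14 and 460.3, 704 and 828 at P28. Only the libraries of P28 stood apart from the rest. Decr1 rose from P14 to P28 (1.22, SE 0.30, adjusted p = 0.0171) and was 2.72-fold higher at P28 than at P1 (1.45, SE 0.30, adjusted p = 0.00223). The rise from P14 was not called without P14 replicate 1 (adjusted p = 0.0522) or P14 replicate 3 (adjusted p = 0.0660), or with only these 2 time points fitted (adjusted p = 0.0738).

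Eci2 was among the most abundant of the 33 genes per kilobase at P1, P7 and P14. It had 2183, 1777 and 1879 normalized counts at P1, 1171, 936 and 1108 at P7, 1464, 1713 and 1209 at P14 and 1384, 1365 and 1179 at P28, with the libraries of P1 above all others. It fell from P1 to P7 (-0.86, SE 0.17, adjusted p = 0.00683) and was 1.48-fold lower at P28 than at P1 (-0.57, SE 0.17, adjusted p = 0.0211). The latter was not called without P1 replicate 1 (-0.48, adjusted p = 0.0915) or P28 replicate 3 (-0.50, adjusted p = 0.0555), and it was -1.01 (adjusted p = 0.000494) with library totals. An antisense model covers 10.8% of its exon bases. Decr2 had means of 146 ± 29.2 at P1, 115 ± 56.4 at P14 and 199 ± 148 at P28 (SD, n = 3), with 91.6 to 116 at P7. It was not called, and its P28 libraries spread from 74.5 to 362.

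None of the 4 peroxisomal enzymes of the rounds was called by limma. Acox3, the oxidase for branched chains, had means of 227 ± 37.0, 197 ± 30.3, 317 ± 60.7 and 211 ± 118 normalized counts at P1, P7, P14 and P28 (SD, n = 3). Acaa1a, the peroxisomal thiolase, had 285 ± 38.4, 219.6 ± 21.8, 436 ± 102 and 304 ± 176, and 12.6% of the 75-base stretches of its transcripts are shared, mainly with its near-identical neighbour Acaa1b. Ehhadh, the bifunctional enzyme, was low, with 34.2 ± 21.3, 37.3 ± 10.2, 33.5 ± 7.43 and 57.1 ± 9.95. Acox2, the oxidase of bile acid precursors and branched chains, was the lowest of all 33 genes, with 7, 26 and 0 reads in the libraries of P1, 15, 6 and 6 at P7, 40, 0 and 1 at P14 and 2, 0 and 3 at P28. A library with 0 reads can hold up to 3 by counting error alone, and no difference was detectable at this depth. Ppara, the nuclear receptor that governs many of these genes in liver, had 209 ± 59.3, 73.0 ± 6.16, 211 ± 146 and 250.2 ± 66.9 normalized counts. The P7 libraries (66.7 to 79.1) lay below all others, but no comparison was called, and the libraries of P14 ranged from 89.9 to 374.

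Beyond the 33 genes, 7 lists of related genes, 97 in all, were examined, of which 93 passed the filter. From P1 to P7, 2 of these rose and 13 fell, or 2.15% and 13.98% beside 3.47% and 4.24% of all genes. From P7 to P14, 31 rose and 2 fell, or 33.3% and 2.15% beside 10.8% and 10.0%. From P14 to P28, 13 rose and 7 fell, or 13.98% and 7.53% beside 5.68% and 8.76%. Between P1 and P28, 26 were higher and 9 lower at P28, or 27.96% and 9.68% beside 14.6% and 20.0%. The median fitted differences were -0.30, 0.53, 0.36 and 0.41, beside the medians of all genes given above. Of 18 further genes of mitochondrial oxidation, 1, 0, 0 and 0 were lower and 0, 4, 3 and 5 higher in P7 versus P1, P14 versus P7, P28 versus P14 and P28 versus P1. In that order 5.56%, 0%, 0% and 0% were lower, beside 4.24%, 10.0%, 8.76% and 20.0% of all genes, and 0%, 22.2%, 16.7% and 27.8% were higher, beside 3.47%, 10.8%, 5.68% and 14.6%. Ivd, the isovaleryl-CoA dehydrogenase, fell to P7 (-1.02, SE 0.19, adjusted p = 0.0041), Mcee rose to P14 (1.35, SE 0.44, adjusted p = 0.0444), Pccb, a subunit of propionyl-CoA carboxylase, rose to P28 (1.10, SE 0.28, adjusted p = 0.0177), and Acot13, the most abundant of these per kilobase at P7, P14 and P28, was higher at P28 than at P1 (1.82, SE 0.29, adjusted p = 0.000286).

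Of 16 further peroxisomal genes, 3, 0, 0 and 0 were lower and 0, 7, 4 and 5 higher in the same 4 comparisons. That is 18.8%, 0%, 0% and 0% lower and 0%, 43.8%, 25.0% and 31.2% higher, to be read beside the same shares of all genes. Phyh, which starts the alpha-oxidation of phytanic acid, rose to P14 (0.92, SE 0.29, adjusted p = 0.0367) and to P28 (1.39, SE 0.29, adjusted p = 0.00707) and was higher at P28 than at P1 (2.28, SE 0.29, adjusted p = 4.01e-05). Ech1, the most abundant of these at P7, P14 and P28, had 409.8, 356, 644 and 947 normalized counts per kilobase at P1, P7, P14 and P28. Of 13 further genes of uptake, binding and activation, 4, 1, 1 and 3 were lower and 1, 5, 3 and 2 higher. That is 30.8%, 7.69%, 7.69% and 23.1% lower and 7.69%, 38.5%, 23.1% and 15.4% higher. In P28 versus P1 both shares lay near those of all genes (20.0% and 14.6%). Dbi, the acyl-CoA-binding protein, was the most abundant at 14175, 5357, 12580.1 and 34820.3 per kilobase. Fabp3 rose from 33.8, 90.0 and 63.6 normalized counts at P1 to 412, 332 and 497 at P7 (2.80, SE 0.81, adjusted p = 0.0496), and Acot11 rose from 31.8, 39.3 and 20.9 at P7 to 346, 354 and 387 at P14 (3.56, SE 0.38, adjusted p = 1.33e-05). Slc27a3 fell from 44.5, 31.7 and 25.0 at P14 to 2.92, 0 and 0 at P28 (adjusted p = 0.00176), and was also lower at P28 than at P1 (38.8, 42.9 and 53.8; adjusted p = 0.000133), a level at which the fitted change depends on the pseudocount.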

How the data were processed

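Reads were aligned by the authors to the mouse genome mm10 with STAR (version 2.5.0a), counted on UCSC transcripts with GenomicAlignments and GenomicFeatures, and normalized with DESeq2 (version 1.30.1 in the submitters' processing notes). The treatment of overlapping genes and of strand is not stated. The deposited values are a signal: counts which the authors had divided by a size factor, one for each library. Whole reads were recovered for 100% of values (tolerance 0.01 of a read) and served for depth and for the count-based alternatives. All 12 column names carry P28, so the time points rest on the labels, which name each column. Intervals and floors cover counting error only, and a library with 0 reads of a gene can hold up to 3 at 95% confidence.

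limma (version 3.58.1, R 4.3.3) was run on log2(value + 1) with a variance trend and a mean per time point, over 15464 genes that reached a value of 10 in 3 or more libraries. The 33 genes and all lists were chosen with earlier results of these data known. All 33 are named, log2 fold changes are given where called, and values per library for genes called at least 2 times and for subunit or isoform pairs. Of each related list, the largest called change per comparison and the most abundant gene are named. Values of a few related genes are not reported here. Ratios within a library were compared between 6 late and 6 early libraries by exact permutation. Each side pooled 2 ages, because 3 against 3 libraries cannot give a p-value below 0.1. Libraries of different ages were thus counted as replicates of a single condition. Lengths are exon unions of GENCODE M21 (GRCm38). Alternatives were edgeR (version 4.0.16, quasi-likelihood, TMM) and DESeq2 (version 1.42.0) on recovered reads, scaling by library totals, no filter, at least 10 in every library, pseudocounts of 0.1 and 10, a fit of only the 2 time points compared, a replicate block, an unadjusted p under 0.05 with a log2 fold change over 0.75, and each library left out. Simulated counts served to check the tests. No library matched another of its time point within sampling noise.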

Additional observations from a re-analysis of the deposited data

How the results depend on the processing

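Of 34 calls over the 33 genes and 4 comparisons, 21 held in all 21 alternatives and 22 with any 1 library left out. Calls were lost with library totals (7), with only the time points compared (6), without the filter (1) and with the replicate block (1). With edgeR, DESeq2, either pseudocount or at least 10 in every library, 0 were lost. The 21 alternatives leave out the unadjusted p under 0.05 with a log2 fold change over 0.75. Its fold change was not reached by Cpt1c in P14 versus P7 (0.64) and P28 versus P14 (-0.73). In P28 versus P1 it was not reached by Eci2 (-0.57) and Etfa (0.70). Counts of genes moved by over 1.5 times as follows. Genes lower in P7 versus P1 (5) were 8 with DESeq2 and 10 with only the time points compared. Genes higher in P14 versus P7 (8) were 5 with library totals, and genes lower there (1) were 2 with library totals, 2 with only the time points compared and 0 with the replicate block. Genes higher in P28 versus P14 (6) were 3 with only the time points compared, and genes lower there (1) were 2 with DESeq2, 2 with library totals, 0 with only the time points compared and 0 at an unadjusted p under 0.05 with a log2 fold change over 0.75. Genes lower in P28 versus P1 (3) were 6 with library totals. The cause was not tested. Counts for the related lists stayed within 1.5 times of their value in 1056 cases and moved further in 176. The marker lists were not part of this check.

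With each library left out, genes higher and lower were 1 to 1 and 4 to 8 in P7 versus P1, 5 to 10 and 0 to 1 in P14 versus P7, 3 to 7 and 0 to 1 in P28 versus P14, and 7 to 10 and 2 to 3 in P28 versus P1. The difference in log2 ratio was -0.19 to 0.14 for Cpt1a to Cpt1c, turning above 0 without P1 replicate 1 (0.11), P1 replicate 3 (0.045), P14 replicate 1 (0.040), P14 replicate 2 (0.034) or P14 replicate 3 (0.14). It was -1.35 to -1.13 for Hadha to Hadhb, and -0.31 to 0.041 for Etfa to Etfb, above 0 without P28 replicate 3 (0.041). Libraries with the same replicate number in different time points deviated with correlations of -0.029 to 0.139 (median 0.031, 18 pairs). Those with different numbers had -0.105 to 0.054 (median -0.011, 36 pairs). The median was thus higher for the same number, with ranges that overlapped. The main fit did not pair the samples, and the block changed the 1 call named above. With the block, the ratio of Hadha to Hadhb had an exact adjusted p of 0.0278 and a difference of -1.25, that of Cpt1a to Cpt1c -0.029 and that of Etfa to Etfb -0.087. At 6399499 to 14733985 reads on genes, Acox2 (0 to 40 reads) was too low to show a difference.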

Other observations

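Fatty acid synthesis and elongation, which opposes oxidation through malonyl-CoA, was covered by 15 genes, all tested. From P1 to P7, 1 rose and 4 fell, from P7 to P14 8 rose and 1 fell, from P14 to P28 2 rose and 3 fell, and 7 were higher and 1 was lower in P28 versus P1. In that order 6.67%, 53.3%, 13.3% and 46.7% were higher, beside 3.47%, 10.8%, 5.68% and 14.6% of all genes, and 26.7%, 6.67%, 20.0% and 6.67% were lower, beside 4.24%, 10.0%, 8.76% and 20.0%. Elovl2, which elongates polyunsaturated chains, rose from 1387, 777 and 1196 normalized counts at P7 to 5238, 6187 and 3835 at P14 (log2 fold change 2.20, SE 0.24, adjusted p = 1.6e-05). Elovl7 rose from 29.5, 52.2 and 33.3 at P1 to 358, 639 and 376 at P7 (3.53, SE 0.36, adjusted p = 6.78e-05) and was higher at P28 (744, 615 and 320.5) than at P1 (3.79, SE 0.36, adjusted p = 2.74e-06). Elovl1 fell from 1059, 731 and 554 at P14 to 279, 136 and 323 at P28 (-1.71, SE 0.36, adjusted p = 0.00761). The summed myelin markers were also highest at P14, and their part in these values was not tested. Scd2, the desaturase of brain, was the most abundant of the list at 2544, 1002, 2807 and 4280.3 normalized counts per kilobase of exon at P1, P7, P14 and P28.

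Of 13 partners and targets of the PPAR receptors, 1 fell from P1 to P7, 4 rose from P7 to P14, 1 rose and 1 fell from P14 to P28, and 3 were higher and 2 were lower in P28 versus P1. The shares higher were 0%, 30.8%, 7.69% and 23.1% and the shares lower 7.69%, 0%, 7.69% and 15.4% in that order, and those from P14 to P28 lay near the 5.68% and 8.76% of all genes. Rxra fell from 900.0 ± 163 (SD, n = 3) to 382 ± 6.41 normalized counts from P1 to P7 (-1.22, SE 0.34, adjusted p = 0.0402). Rxrg was 319, 151 and 240.0 at P1 and 0, 0 and 4.06 at P28 (adjusted p = 0.000149). Pparg rose from 12.7, 10.5 and 6.20 at P7 to 73.1, 20.1 and 114 at P14 (2.44, SE 0.77, adjusted p = 0.0366), and Angptl4, a secreted lipase inhibitor, fell from 338 ± 35.8 at P14 to 134 ± 107 at P28 (-1.60, SE 0.42, adjusted p = 0.0221). Ucp2 had 138, 131, 325 and 502 normalized counts per kilobase at P1, P7, P14 and P28 and was the most abundant of the list at the last 3 of these. Of 6 ketone body genes, 0 were called by limma in each consecutive step, and 2 were higher (33.3%) and 1 was lower (16.7%) in P28 versus P1, beside 14.6% and 20.0% of all genes. Oxct1, which uses ketone bodies, was the most abundant, at 344, 526, 509 and 606 per kilobase. Of 12 lipid droplet genes, 0 were called by limma from P1 to P7, 3 rose from P7 to P14 (25.0%, beside 10.8% of all genes), 2 fell from P14 to P28 (16.7%, beside 8.76%), and 2 were higher and 2 were lower in P28 versus P1 (16.7% each, near the 14.6% and 20.0% of all genes). Plin3, a droplet coat protein, rose from 46.6 ± 10.9 at P7 to 208 ± 53.9 at P14 (2.13, SE 0.53, adjusted p = 0.00997). Pnpla3 was 145, 453 and 287 at P14 and 102, 0 and 8.11 at P28 (adjusted p = 0.0176), and Plin5 was 52.4 ± 58.6 at P1 (SD, n = 3) and 2.92, 2.36 and 0 at P28 (adjusted p = 0.0324). Dgat1 had 156, 143, 93.2 and 202 normalized counts per kilobase at P1, P7, P14 and P28.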
